A study of Mus musculus with 24 samples.

Results

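The CDR3 of the TCRβ chain is the loop that meets the peptide in the binding groove of an MHC molecule. It is put together from a V gene, a D segment and a J gene with bases added or removed at the joints, so its middle residues vary most. Residues 6 and 7, counted from the cysteine that opens the loop, lie near its tip, and hydrophobic residues at both positions have been linked to T cells that react to self-peptides, in the thymus and in regulatory T cells. A CDR3 was counted here as carrying this hydrophobic doublet when it had 12 to 16 residues, began with cysteine, and had cysteine, phenylalanine, isoleucine, leucine, methionine, valine, tryptophan or tyrosine at both positions. No expression level or group was used to choose members. A clonotype was a CDR3 amino acid sequence with its V gene and J gene, with at least 2 counts and no stop codon. Of 47705 distinct TCRβ clonotypes in the series, 36778 had 12 to 16 residues and began with cysteine, and 736 of these carried the doublet. The other 36042 were the CDR3s of the same lengths against which the members were compared.

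TCRβ libraries came from RNA of whole CT26 tumors, a colon carcinoma line (CT26.CL25) grown under the skin of both flanks of female BALB/c mice aged 7 to 9 weeks. There were 12 mice in 4 groups of 3, and 2 tumors per mouse. In time-matched mice both tumors were taken 13 days after inoculation. In untreated time-separated mice 1 tumor was removed by surgery and the other was taken 11 days later; they also served as the vehicle group. In both decitabine groups surgery was the same and the mice received decitabine, an inhibitor of DNA methyltransferases, by intraperitoneal injection at 0.5 or 2 mg/kg on 5 days in a row from 3 days after surgery, with harvest 4 days after the last dose. Tumors are numbered 1 and 2 in the labels, with no order of removal, so none was called early or late. In the decitabine groups 1 tumor of each mouse was removed before treatment, and which one is not labeled. The mouse was the replicate. TCR RNA was sequenced without sorting cells, so fewer T cells and less TCR RNA per cell cannot be told apart. Libraries held 375898 to 610800 retained counts in time-matched, 97815 to 207072 in time-separated, 63291 to 199081 in 0.5 mg/kg and 64192 to 887567 in 2 mg/kg tumors.

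Coding sequences of CDR3s that carried the results are given from the deposited files, 5′ to 3′, with the codons of residues 6 and 7 in capitals. The first 5 are doublet clonotypes that led a mouse by mean percent of counts over its 2 tumors. They had no much larger near-identical clonotype in their library, and each is named by the mouse in which its percent of counts was largest.
Mouse 11 clonotype, TRBV5 and TRBJ2-4, valine and leucine: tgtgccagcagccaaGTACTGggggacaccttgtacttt
Mouse 19 clonotype, TRBV5 and TRBJ2-3, valine and tryptophan: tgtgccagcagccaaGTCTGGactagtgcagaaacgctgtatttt
Mouse 16 clonotype, TRBV13-2 and TRBJ2-1, valine and tyrosine: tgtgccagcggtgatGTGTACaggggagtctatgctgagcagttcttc
Mouse 17 clonotype, TRBV13-3 and TRBJ2-7, valine and tryptophan: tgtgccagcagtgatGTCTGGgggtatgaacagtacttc
Mouse 6 clonotype, TRBV19 and TRBJ2-3, valine and leucine: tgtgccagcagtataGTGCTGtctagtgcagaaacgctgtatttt

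The next 4 show a pattern that ran through the members. A clonotype with 1 hydrophobic residue in the doublet codons is given first, followed by the doublet clonotype that differed from it by 1 base in the same library.
Mouse 14, tryptophan and glycine: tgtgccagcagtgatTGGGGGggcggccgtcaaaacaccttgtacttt
Mouse 14, tryptophan and tryptophan: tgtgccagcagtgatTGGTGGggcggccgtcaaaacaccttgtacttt
Mouse 12, tryptophan and glycine: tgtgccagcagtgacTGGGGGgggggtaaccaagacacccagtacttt
Mouse 12, tryptophan and valine: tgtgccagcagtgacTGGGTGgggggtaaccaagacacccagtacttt

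The mouse 14 pair differed by G19T and the mouse 12 pair by G20T, with positions counted from 1 at the first base of the CDR3, the larger clonotype's base first. In tumor 2 of mouse 14 the first had 129401 counts and the doublet clonotype 220, a ratio of 588. In tumor 2 of mouse 12 the counts were 21871 and 29, a ratio of 754. Both pairs used TRBV13-1, with TRBJ2-4 in mouse 14 and TRBJ2-5 in mouse 12.

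Larger near-identical clonotypes stood beside most of the members. A larger neighbor was defined as a clonotype of the same tumor with the same V gene, J gene and CDR3 length, at least 100 times the counts, and no more than 3 base differences. The 736 clonotypes gave 910 entries over the 24 tumors, and 550 entries had a larger neighbor. Of these, 281 lay 1 base away and 524 lay within 2 bases, and for 181 entries the larger clonotype was 1 base away and did not carry the doublet. For 305 of the 550 the larger neighbor had tryptophan at position 6 and glycine at position 7. Where the member was 1 base from a larger clonotype without the doublet, the change was G to T in 159 of 181 entries, against 1981 of 11936 entries for CDR3s without the doublet that had a larger neighbor at 1 base. The doublet is encoded by only some codons, which by itself limits the changes that can create it. Whether these entries are copying errors of the larger clonotype or separate T cells was not tested, and results below are given with all clonotypes and, for the group comparisons and the comparisons with other CDR3s, again after removal of all clonotypes with a larger neighbor, members and others alike, in every tumor. The 2-base and 3-base limits were chosen after the data were seen.

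**Figure D1:**
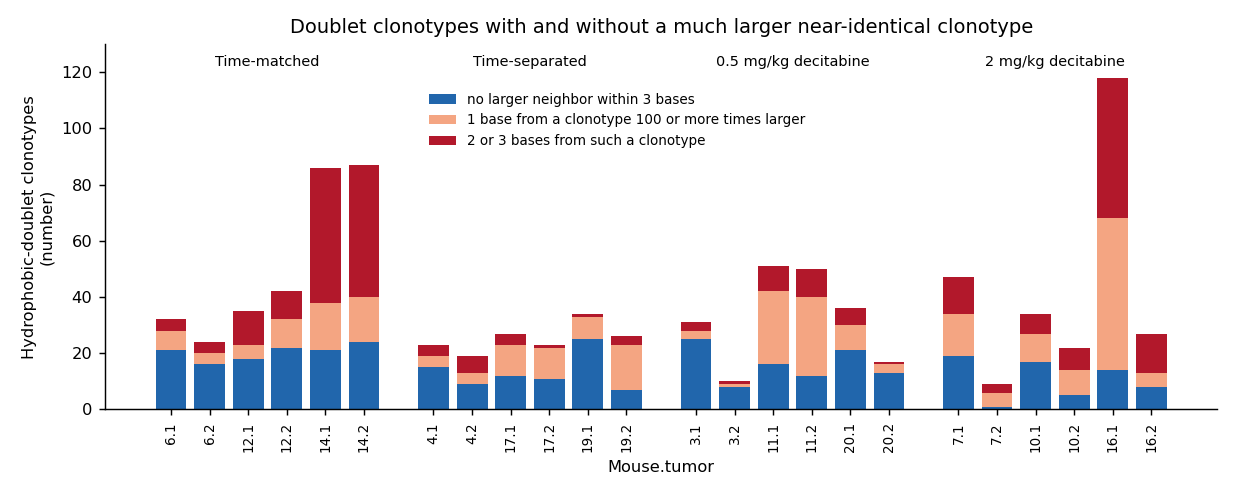
Number of hydrophobic-doublet clonotypes in each of the 24 tumors, labeled as mouse.tumor and ordered by group, split by distance to a larger neighbor. Tumor 1 of mouse 16 held 118, of which 104 had a larger neighbor, and both tumors of mouse 14 held over 80, of which 21 and 24 had none.

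The number of doublet clonotypes ran from 9 to 118 per tumor, with a median of 31.5. After removal of clonotypes with a larger neighbor it ran from 1 to 25, with a median of 15.5. In tumor 2 of mouse 7, among the libraries with the fewest counts, 1 member was left. Larger neighbors within 3 bases were found for a median of 52.4% of doublet entries per tumor and of 38.0% of other CDR3s of the same lengths. Within 1 base the order was the other way, with medians of 23.7% and 26.4%. The entries were concentrated around few clonotypes. The TRBV13-1 clonotype of mouse 14 printed above had 57 member entries around it over both tumors, and the mouse 11 clonotype, itself a member, had 23 in tumor 1 and 27 in tumor 2.

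The residues of the doublet differed once members with a larger neighbor were set aside. Counted once per mouse there were 763 members, and 332 had no larger neighbor. Among all 763, tryptophan followed by valine made up 20.7% and a tryptophan pair 17.4%. Among the 332 these made up 13.0% and 2.71%, and valine followed by tryptophan led with 16.3%. Tyrosine followed by tryptophan made up 11.1%. Tryptophan stood at position 7 in 41.3% of the 332, leucine in 22.6% and valine in 21.1%. At position 6 valine was found in 30.7%, tryptophan in 21.1%, leucine in 19.9% and tyrosine in 13.6%.

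The doublet was a small share of each repertoire. It made up 2.02% ± 1.09 (SD, n = 12 mice) of the clonotypes of 12 to 16 residues, and 0.875% ± 1.68 of their counts. After removal of clonotypes with a larger neighbor the shares were 1.33% ± 0.43 and 0.797% ± 1.69. The mean share of counts rested on mouse 11, and in the other 11 mice it was 0.395% ± 0.242, or 0.313% ± 0.237 without larger neighbors. By counts the share was lower than by clonotypes in 22 of 24 tumors, with either set. For comparison within the same CDR3s, a hydrophobic pair stood at positions 5 and 6 in 4.23% of a mouse's clonotypes, at 7 and 8 in 1.59% and at 8 and 9 in 1.38%, against 2.04% at 6 and 7 when each clonotype was counted once per mouse. Once clonotypes with a larger neighbor were removed the same 4 values were 3.78%, 1.45%, 1.38% and 1.34%. CDR3s with a hydrophobic residue at position 6 only held 19.5% ± 6.0 of clonotypes and 27.6% ± 18.9 of counts, and 14.4% ± 1.5 and 27.5% ± 18.8 without larger neighbors, with the higher share by counts in 8 of 12 mice in both and no test made. Their mean clone size, 3.10 log2 counts, was not above the 3.42 of CDR3s with neither residue. Those hydrophobic at position 7 only held 13.3% of clonotypes and 10.6% of counts, and 13.6% and 10.6% without larger neighbors.

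The doublet share of clonotypes in time-matched mouse 6 was 1.25% in tumor 1 and 1.32% in tumor 2. Mouse 12 had 1.33% and 1.47%, tumor 1 first here and below, and mouse 14 had 3.52% and 3.65%. The tumors of a mouse lay close together and mouse 14 stood above the others. Untreated time-separated mouse 4 had 1.19% and 0.791%, mouse 17 had 1.26% and 1.45%, and mouse 19 had 1.68% and 2.17%. At 0.5 mg/kg mouse 3 had 1.60% and 1.39%, mouse 11 had 2.53% and 3.61%, and mouse 20 had 1.71% and 1.55%. At 2 mg/kg mouse 7 had 1.80% and 1.62%, mouse 10 had 1.38% and 1.20%, and mouse 16 had 6.37% and 2.63%. The 4 groups overlapped, and the 3 mice with the highest shares, 14, 11 and 16, came from different groups. Without larger neighbors the highest tumor was at 2.28%, and those mice averaged 1.73%, 1.29% and 1.70%.

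**Figure D2:**
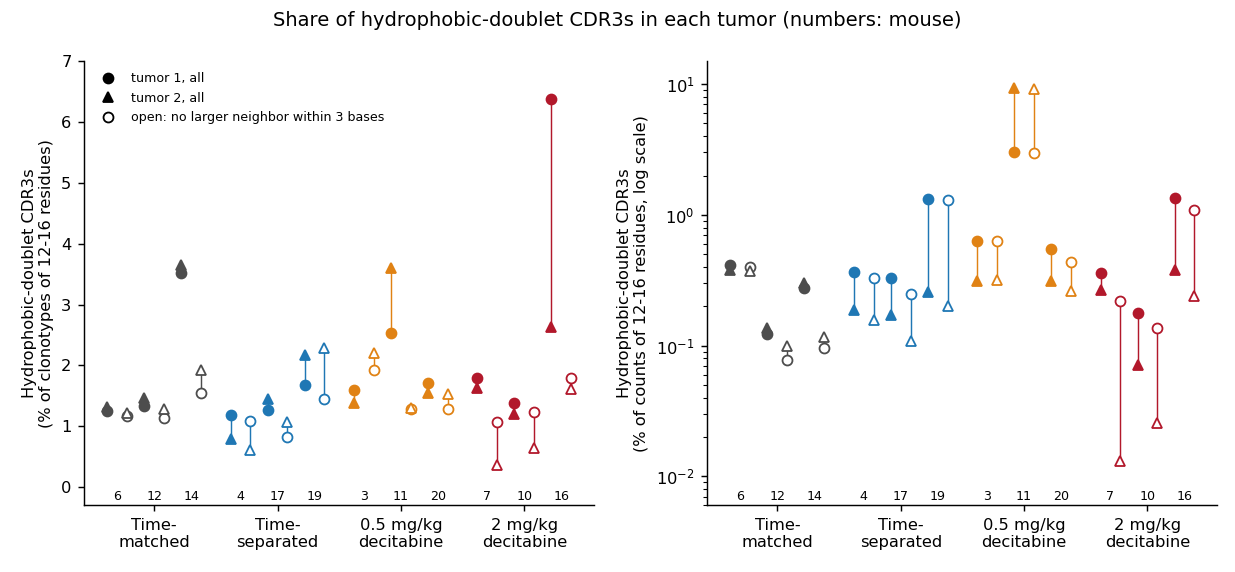
Share of hydrophobic-doublet CDR3s among clonotypes (left, percent) and among counts (right, percent, log scale) of 12 to 16 residues in each tumor, by group and mouse, with filled symbols for all clonotypes and open symbols without larger neighbors. The high clonotype shares of mice 14, 11 and 16 came down to under 2% in the open symbols, while the 3.04% and 9.27% of counts in mouse 11 stayed at 3.00% and 9.23%.

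Group means did not differ beyond the spread between mice. The share of clonotypes was 2.09% ± 1.29 in time-matched and 1.42% ± 0.47 in untreated time-separated mice (exact permutation test, two-sided, p = 0.6, n = 3 and 3), and 2.00% ± 1.11 in all 9 time-separated mice (exact permutation test, p = 0.891). It was 2.07% ± 0.87 at 0.5 mg/kg and 2.50% ± 1.75 at 2 mg/kg (exact permutation tests against untreated time-separated mice, p = 0.4 and p = 0.5). Here and for the share of counts below, each mouse's value averaged its 2 tumors. In the decitabine groups 1 of these was removed before treatment, so treated and untreated tumors were not compared. The 0.5 mg/kg mean was 0.642 points above the untreated one, and 0.141 points without mouse 11. The 2 mg/kg mean was 1.08 points above it, and 0.0756 points without mouse 16. Over the 3 time-separated groups together the exact permutation p was 0.568. With 3 mice against 3 the smallest p that the test allows is 0.1, and with 9 against 3 it is 0.00455. The means without larger neighbors were 1.38%, 1.22%, 1.59% and 1.12% in the same order of groups, with exact permutation p of 0.5 to 0.805 for the same comparisons. In all, 10 comparisons of shares between groups were made in each set, and the adjusted p was 0.667 or more for each.

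By counts, the doublet share in time-matched mouse 6 was 0.412% and 0.381%, mouse 12 had 0.122% and 0.136%, and mouse 14 had 0.275% and 0.303%. Untreated time-separated mouse 4 had 0.365% and 0.188%, mouse 17 had 0.330% and 0.171%, and mouse 19 had 1.33% and 0.256%. The decitabine tumors ranged from 0.310% to 0.629% in mice 3 and 20, and from 0.0713% to 1.36% at 2 mg/kg, with mouse 11 far above at 3.04% and 9.27%. Mean shares of counts were 0.272% ± 0.135 in time-matched, 0.440% ± 0.306 in time-separated, 2.35% ± 3.30 at 0.5 mg/kg and 0.435% ± 0.386 at 2 mg/kg. The 0.5 mg/kg mean was 1.91 points above the untreated one, and 0.00969 points without mouse 11. The 5 comparisons gave exact permutation p of 0.373 to 1. Once clonotypes with a larger neighbor were removed the means were 0.194%, 0.392%, 2.31% and 0.288% in the same order, with exact permutation p of 0.382 to 0.5.

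The distance between the tumors of a mouse in the share of counts was smaller in the 3 time-matched than in the 3 untreated time-separated mice, at the limit of what 3 against 3 can test. The absolute difference in the share of counts was 0.0305, 0.0144 and 0.0279 percentage points in time-matched mice 6, 12 and 14, and 0.177, 0.159 and 1.07 points in untreated time-separated mice 4, 17 and 19. These 3 against 3 values did not overlap, and the means were 0.0243 and 0.470 points (exact permutation test, p = 0.1, the smallest it allows). This difference of 0.446 points was 0.144 points without mouse 19. Across all 9 time-separated mice the values ran from 0.0928 to 6.23 points, all above the time-matched ones, with a mean of 1.04 (exact permutation test, p = 0.255). The difference of means was 1.02 points, and 0.369 points without mouse 11. With the largest member of each mouse left out the difference of means was 0.197 points (exact permutation test, p = 0.0318). This was the only 1 of 23 alternatives for this comparison with an unadjusted p under 0.05. The distance was not compared with that of other CDR3s. Time-matched libraries were also the deeper ones, apart from 2 mg/kg libraries that reached the same counts. After thinning to equal depth the difference of means was 0.448 points for the untreated and 1.03 points for all time-separated mice, against 0.446 and 1.02 with all counts. Thinning at random leaves the expected share of counts unchanged, so a role of depth was not tested. The means without larger neighbors were 0.0220 points in time-matched and 0.476 points in untreated time-separated mice (exact permutation test, p = 0.1). For the share of clonotypes the distance was 0.0689 to 0.144 points in time-matched and 0.160 to 3.74 points in all 9 time-separated mice, and without larger neighbors the groups overlapped, at 0.0491 to 0.373 and 0.0282 to 0.828 points. It was not tested.

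Doublet clonotypes were small clones. Clone size was taken as the mean log2 count per clonotype in a tumor, averaged over both tumors, with the other CDR3s weighted to the members' lengths. It was 2.83 ± 0.28 for members and 3.24 ± 0.15 for the other CDR3s of the same lengths (log2 counts, n = 12 mice). Members were lower in each of the 12 mice, by 0.41 on average (exact test by sign flips over mice, two-sided permutation p = 0.000488, which is the smallest possible; adjusted p = 0.00146 over 6 tests). The difference ran from -0.01 in mouse 3 to -0.77 in mouse 7. CDR3s hydrophobic at position 6 only averaged 3.10 and those at position 7 only 3.32, or 4.10 and 4.09 without larger neighbors. Members were not tested against these classes. Removal of larger neighbors selects on counts, since it takes out mostly small clones, and it took out more of the members than of the others, so clone size in that set is not independent of the selection. There members averaged 3.71 ± 0.62 and the others 4.10 ± 0.44, lower in 9 of 12 mice (p = 0.0332 by the same exact permutation test, adjusted p = 0.0498). Mice 4, 11 and 16 then had larger members than other CDR3s, and the unadjusted exact permutation p rose to between 0.0566 and 0.0664 when mouse 7, 10, 14, 19 or 20 was left out. Removal of 1-base neighbors alone gave a larger difference of -0.66. Within 1 base a median of 26.4% of others and 23.7% of members had a larger neighbor, so this value is not independent of the selection either. The difference in size did not separate time-matched from all time-separated mice (means -0.47 and -0.38, exact permutation test, p = 0.655), nor did it without larger neighbors (means -0.59 and -0.32, exact permutation test, p = 0.495).

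Large doublet clones were few. Of 1367 entries of any CDR3 length above 0.1% of a tumor's counts, 5 carried the doublet, in 4 tumors. Members were 910 of all 61362 clonotype entries of any length over the 24 tumors. The largest member of a tumor ranked between the 3rd and the 338th clonotype, with a median rank of 109.5, and in 1 of 24 tumors a member was among the 10 largest clonotypes. Among members 0.406% ± 0.917 of clonotypes lay above 0.1% of counts, against 2.68% ± 1.43 of the other CDR3s (exact sign-flip permutation test, p = 0.000488, lower in 12 of 12 mice). In the set selected on counts, without larger neighbors, the values were 1.42% ± 3.36 and 4.36% ± 1.94 (exact sign-flip permutation test, p = 0.0181, adjusted p = 0.0361, lower in 11 of 12 mice, mouse 11 being the exception). In 9 of 12 mice no member lay above 0.1%, in either set, so the counts of mice rest mostly on values of 0.

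**Figure D3:**
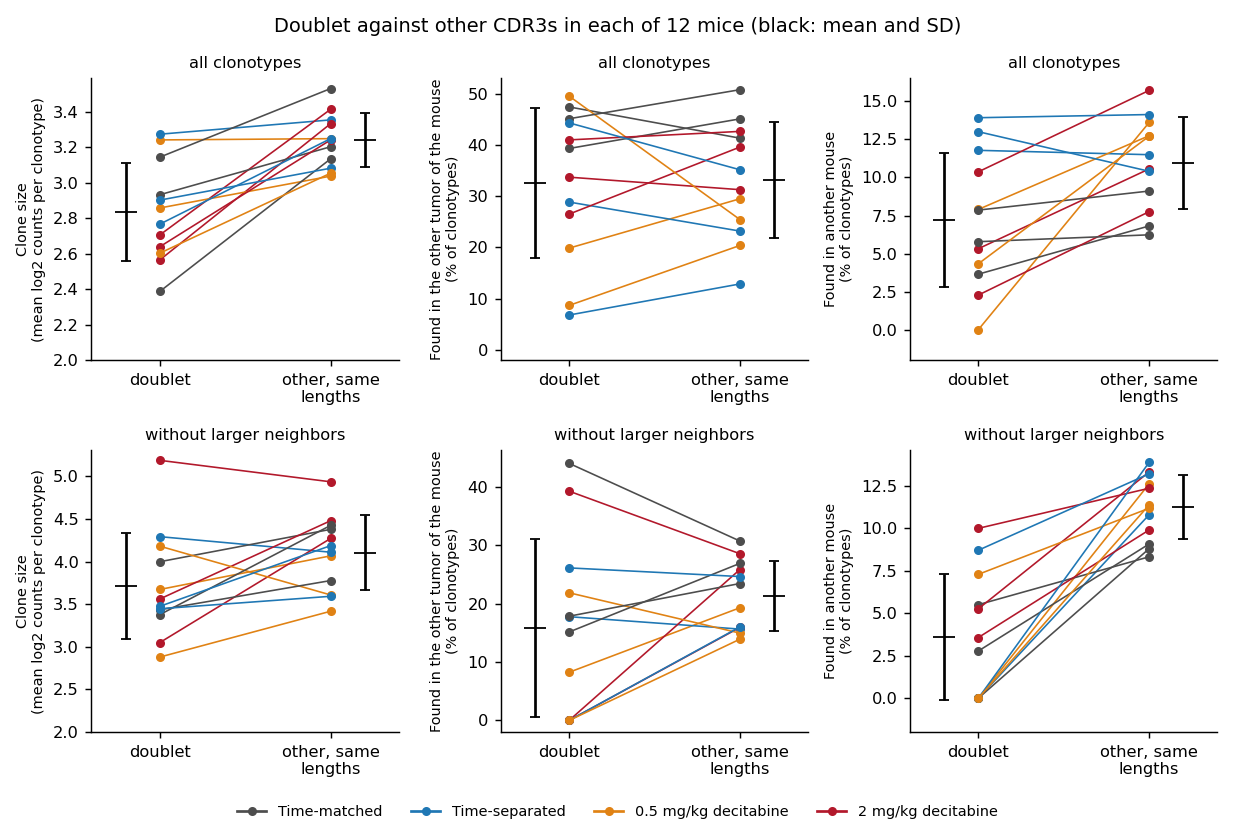
Doublet CDR3s against other CDR3s of the same lengths in each mouse, as mean log2 counts per clonotype (left), percent of clonotypes found in the other tumor of the mouse (middle) and percent found in another mouse (right), for all clonotypes (top) and without larger neighbors (bottom). Lines join the values of 1 mouse, colors give its group, and black marks give the mean and SD of 12 mice; on the left and right the doublet lies lower on average in both rows, and in the middle the lines cross.

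The largest doublet clone of the series was the TRBV5 and TRBJ2-4 clonotype of mouse 11, whose CDR3 has 13 residues. It had 4171 of 199081 counts in tumor 1, 2.10% (95% Clopper-Pearson interval 2.03 to 2.16%), and 7314 of 98820 in tumor 2, 7.40% (7.24 to 7.57%). It was the 11th clonotype of tumor 1 and the 3rd of tumor 2, and held 84.9% and 93.4% of all member counts in these libraries. It was found in no other mouse. Intervals cover counting error only, since reads were copied by PCR.

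The next largest were the mouse 19 and mouse 16 clonotypes. The mouse 19 clonotype had 502 of 97815 counts in tumor 1, 0.513% (0.469 to 0.560%), and 0 of 205823 in tumor 2. A count of 0 there allows a share of up to 0.00146%, taken as 3 counts, and the 95% interval reaches 0.00179%. The mouse 16 clonotype had 2330 counts in tumor 1, 0.263%, and 144 in tumor 2, 0.0356%. Both carried valine at position 6 and an aromatic residue at position 7.

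In the other time-separated mice the member that differed most between the tumors was a small clone. The mouse 17 clonotype had 98 counts in tumor 1 and 8 in tumor 2, 0.0473% and 0.00470%. In mouse 4 a TRBV4 and TRBJ2-4 clonotype with cysteine and tryptophan had 60 and 0 counts, and the leading member, of TRBV20 and TRBJ2-5 with isoleucine and leucine, had 43 and 24. In mouse 3 a TRBV1 and TRBJ2-7 clonotype with valine and tryptophan had 117 and 0 counts, whereas its leading TRBV5 and TRBJ2-5 clonotype had 121 and 36, 0.0651% and 0.0569%, with overlapping intervals. In mouse 20 a TRBV1 and TRBJ2-4 clonotype with the same doublet had 94 and 0 counts, and in mouse 10 a TRBV13-2 and TRBJ2-3 clonotype with tryptophan and phenylalanine had 109 and 0. In mouse 7 the leading member, of TRBV13-1 and TRBJ2-5 with tryptophan and valine, had 48 of 283419 and 62 of 64192 counts, 0.0169% and 0.0966%. It lay 1 base (G20T) from a clonotype with 6955 and 6271 counts.

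For time-matched mice only the leading member was taken, so these values are not a counterpart to the members chosen above for their difference. The mouse 6 clonotype had 204 and 132 counts, 0.0348% and 0.0351%. In mouse 14 the tryptophan pair clonotype printed above had 212 and 220 counts, 0.0352% and 0.0360%, beside 150614 and 129401 counts of its larger neighbor. In mouse 12 the leading member had 84 and 63 counts, 0.0166% and 0.0105%, and lay 1 base (C20T) from a clonotype of 79289 and 71612 counts.

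**Figure D4:**
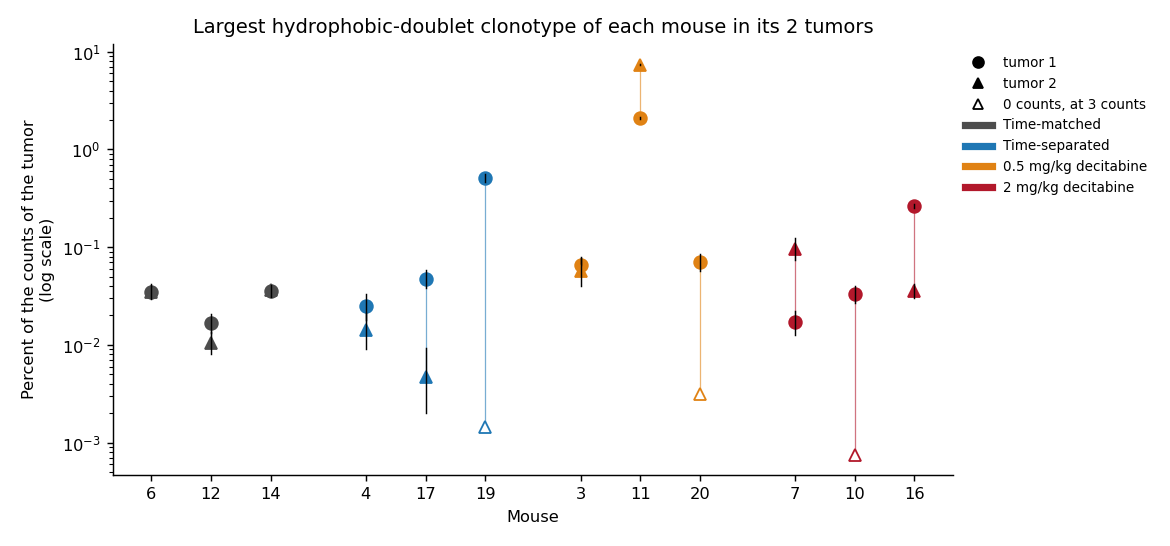
Percent of a tumor's counts (log scale) held by the largest hydrophobic-doublet clonotype of each mouse in tumor 1 (circles) and tumor 2 (triangles), with 95% Clopper-Pearson intervals as black lines; open symbols are 0 counts, drawn at 3 counts. The symbols of time-matched mice 6 and 14 coincide, and in mice 19, 20 and 10 the clonotype had counts in 1 tumor only.

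Persistence, the share of a tumor's clonotypes also found in the other tumor of the mouse, did not differ detectably between doublet and other CDR3s. It was 32.6% ± 14.7 for members and 33.1% ± 11.3 for other CDR3s of the same lengths, higher in 5 and lower in 7 mice (p = 0.874, exact sign-flip permutation test). With the other CDR3s weighted to the members' clone sizes as well, theirs was 31.9% ± 10.7 (exact sign-flip permutation test, p = 0.823). With single-count sequences kept, members minus others was -5.49 points (exact sign-flip permutation test, p = 0.0083). Without larger neighbors the values were 15.9% ± 15.2 and 21.3% ± 6.0 (exact sign-flip permutation test, p = 0.149). In mice 7, 10, 19 and 20 no member without a larger neighbor was in both tumors. Per mouse, 10 to 22.5 such members were left per tumor on average. In time-matched mice persistence of members was 47.4%, 39.3% and 45.1% in mice 6, 12 and 14, and in the 9 time-separated mice it ran from 6.79% in mouse 19 to 49.5% in mouse 11. The member minus other difference was -1.78 points in time-matched and -0.0881 points in all time-separated mice (exact permutation test, p = 0.841).

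Weighted by counts, persistence was lower for the doublet. Clonotypes found in both tumors held 49.0% ± 28.4 of member counts and 80.7% ± 12.0 of the counts of other CDR3s (exact sign-flip permutation test, p = 0.00195, adjusted p = 0.00391, lower in 11 of 12 mice). Without larger neighbors the values were 33.4% ± 34.2 and 80.8% ± 11.9 (exact sign-flip permutation test, p = 0.00195, adjusted p = 0.00586). The exception was mouse 11, where the mouse 11 clonotype held most member counts and was in both tumors. This measure was not weighted for clone size or length, and members were smaller clones.

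Doublet clonotypes were shared between mice less than the other CDR3s of the same lengths as a whole. Per tumor 7.18% ± 4.41 of members were found in at least 1 other mouse, against 10.9% ± 3.0 of other CDR3s of the same lengths (exact sign-flip permutation test, p = 0.00928, adjusted p = 0.0139, lower in 10 of 12 mice, mice 4 and 19 being higher). Without larger neighbors the values were 3.59% ± 3.72 and 11.2% ± 1.9, lower in 12 of 12 mice (p = 0.000488, exact sign-flip permutation test, adjusted p = 0.00293), and only 7 of the 12 mice had any such shared member. Removal was made in every mouse before sharing was counted, so a clonotype removed in another mouse no longer counted as shared. It took out more of the members than of the others, so sharing in that set is not independent of the selection. With all clonotypes this did not set the doublet apart from CDR3s hydrophobic at position 7 only, of which 6.79% ± 2.19 were found in another mouse (difference 0.397 points ± 5.04, exact sign-flip permutation test, p = 0.785, lower in 6 of 12 mice). In the selected set, without larger neighbors, that class stood at 9.01% ± 2.65 (difference -5.42 points ± 5.29, exact sign-flip permutation test, p = 0.00391, lower in 11 of 12 mice). This comparison was added after the data were seen and was not weighted for length. Of 736 distinct members 17 occurred in 2 or more mice, and none in more than 4. Among the 36042 other clonotypes 1432 did, up to 12 mice. Of the 327 distinct members without a larger neighbor, 4 (1.22%) occurred in 2 or more mice, as did 978 of 23744 others (4.12%).

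The 3 members found in most mice, 4 each, had a larger neighbor in each of those mice. All 3 used TRBV13-1 and TRBJ2-5, had tryptophan at position 6, and lay 1 base from a clonotype with glycine at position 7. The tryptophan and valine clonotype whose mouse 12 sequence is printed above was one of them. Over its 7 libraries it had 3 different main coding sequences, so the counts are those of the amino acid clonotype. Mouse 12 had 16 and 29 counts of it, mouse 4 had 7 and 4, mouse 17 had 13 and 3, and tumor 1 of mouse 11 had 2, where the larger clonotype had 16610, 21871, 2101, 1426, 2715, 1874 and 634 counts in turn. The other two had 2 to 18 counts per library.

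The mouse 17 clonotype was the exception among named members, since it was in 3 mice and had no larger neighbor in any library. Beside mouse 17 it had 22 counts in tumor 2 of mouse 10, 0.00544%, and 204 in tumor 1 of mouse 16, 0.0230%. Its main coding sequence, printed above, was the same in all 4 libraries. Whether this was separate T cells with the same CDR3 or carry-over between libraries was not tested.

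Gene usage of members and other CDR3s was compared as percent of clonotypes, 1 value per mouse, with no weighting for length. Near-identical V genes such as TRBV13-1, TRBV13-2 and TRBV13-3 can be hard to tell apart in short reads, so calls among them are uncertain. With all clonotypes 4 of 16 V genes tested (25%) passed an adjusted p of 0.05 in exact sign-flip permutation tests. TRBV13-1 was higher among members, 35.8% against 18.1%, in 12 of 12 mice (adjusted p = 0.00781, permutation). TRBV17, TRBV20 and TRBV2 were lower, TRBV17 at 2.84% against 6.57% (adjusted p = 0.0273, permutation). Without larger neighbors 0 of 17 V genes (0%) passed in the exact sign-flip permutation test, and 1 had an unadjusted p under 0.05. TRBV13-1 then stood at 8.51% of members and 12.0% of others (adjusted p = 0.355, permutation), so its direction depended on the clonotypes with a larger neighbor.

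J gene usage was set apart with either set. Of 12 J genes 8 passed (66.7%) with all clonotypes and 8 (66.7%) without larger neighbors, in exact sign-flip permutation tests. TRBJ1-1 to TRBJ1-5, of the first J cluster, were lower among members in both. Without larger neighbors TRBJ1-1 made up 2.11% of members and 8.58% of others, TRBJ1-2 0.937% and 5.67%, TRBJ1-3 1.78% and 5.76%, and TRBJ1-4 2.35% and 7.72%, each lower in 12 of 12 mice (adjusted p = 0.00146 each, permutation). TRBJ1-5 made up 0.333% and 2.76% (adjusted p = 0.00234, permutation). The members behind these shares were few, 7, 3, 7, 9 and 1 of the 332 for TRBJ1-1 to TRBJ1-5, where the shares of the others would give 28.5, 18.8, 19.1, 25.6 and 9.17. There was no such member in 5, 9, 6, 5 and 11 of the 12 mice, so the counts of lower mice rest partly on values of 0. For TRBJ1-5 the 9.17 is fewer than the 12 mice, so its count of mice carries no weight.

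In the second J cluster 3 genes were higher without larger neighbors, and TRBJ2-2, TRBJ2-3 and TRBJ2-7 did not pass. TRBJ2-5 made up 17.2% of members without larger neighbors and 11.4% of others (adjusted p = 0.0225, permutation), TRBJ2-1 18.2% and 12.0% (adjusted p = 0.0310), and TRBJ2-4 16.3% and 9.15% (adjusted p = 0.0476). With all clonotypes TRBJ2-4 and TRBJ2-5 were higher at 22.8% and 21.4%, TRBJ2-2 was lower at 3.34% against 6.05%, and TRBJ2-1 did not pass (17.2% against 14.0%, adjusted p = 0.103, permutation).

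**Figure D5:**
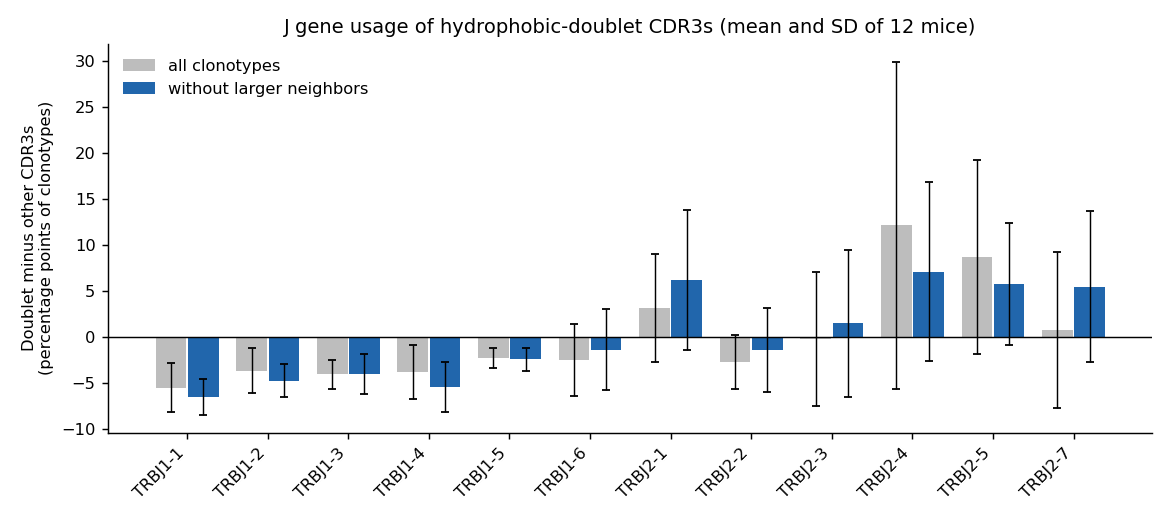
Difference in J gene usage between doublet CDR3s and other CDR3s of the same 12 to 16 residues, in percentage points of clonotypes (bars, mean of 12 mice; lines, SD), for all clonotypes (gray) and without larger neighbors (blue). TRBJ1-1 to TRBJ1-5 lie below 0 and TRBJ2-1, TRBJ2-4 and TRBJ2-5 above 0 in both.

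The D segments named in the files also differed in share. TRBD2 was named for 67.5% ± 7.0 of members and 36.4% ± 3.8 of others, and TRBD1 for 10.1% ± 4.7 and 47.1% ± 4.2. Without larger neighbors TRBD2 stood at 69.7% and 33.5%. TRBD2 lies behind the first J cluster on the chromosome and joins genes of the second. The D segment is read from the bases that encode the middle of the loop, so the doublet itself bears on the call, and no test was made.

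Length and flanking residues were compared in the same way. With all clonotypes 3 of 5 lengths passed (60%) in exact sign-flip permutation tests: 16 residues was higher, 32.1% of members against 15.6%, and 12 and 15 residues were lower. Without larger neighbors 1 of 5 passed (20%), 12 residues, at 5.26% against 11.2% and lower in 12 of 12 mice (adjusted p = 0.00244, permutation), while 16 residues stood at 16.9% and 11.5% (adjusted p = 0.317, permutation). At position 5, 4 of 16 residues passed (25%) with all clonotypes. Aspartate was higher, 37.3% against 20.5% (adjusted p = 0.00521, permutation), and glycine, arginine and tryptophan were lower. Tryptophan rested on 1 of 763 members, where the share of the others would give 10.9, with none in 11 of 12 mice. Without larger neighbors 1 of 16 passed (6.25%), tryptophan, which preceded none of the 332 members and 1.27% of others. At that share 4.22 of the 332 would have it, under 1 per mouse, so a mouse without one is the usual case and the count of mice carries no weight.

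At position 8, 6 of 15 residues passed (40%) with all clonotypes and 7 of 15 (46.7%) without larger neighbors, in exact sign-flip permutation tests. Glycine followed the doublet in 53.4% of members and 34.9% of others, and in 54.7% and 33.4% without larger neighbors, higher in 11 of 12 mice in both (adjusted p = 0.00732 and 0.00488, permutation). Glutamine was lower, at 1.73% against 5.12% without larger neighbors, as were glutamate, isoleucine, leucine, arginine and tryptophan. These 5 rested on 1 to 4 of the 332 members each, with none in 8 to 11 of the 12 mice. The shares of the others would give 10.6, 5.02, 6.76, 15.9 and 6.93 members in the same order. For all but arginine this is fewer than the 12 mice, so the count of mice carries no weight.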

How the data were processed

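TCRβ libraries of 24 tumors were analyzed. The authors prepared them with a SMART-Seq mouse TCR kit with molecular identifiers and called clonotypes with Cogent NGS Immune Profiler 2.0. The deposited values are counts per receptor sequence, without normalization. The methods name an analysis based on these identifiers and call the retained counts reads, so intervals cover counting error only. TCRα tables were not used here.

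Sequences with a stop codon or under 2 counts were left out. Shares, clone size, persistence and sharing were computed per tumor and averaged per mouse; other CDR3s were weighted to the members' lengths. V and J genes, lengths and residues at 1% or more of clonotypes were tested. Tests were exact permutations over mice, two-sided, with Benjamini-Hochberg adjustment within each family. Scripts were tested on simulated data. The named clonotypes were the largest member of each mouse, the 3 found in most mice, and the member that differed most between the tumors of each time-separated mouse. The largest or leading member was the one with the highest mean percent of counts over both tumors, so another member can be larger in 1 tumor. V and J genes were named where they passed, up to 8 per family. Members and lists were chosen with earlier results of these data known. Retained counts per library ran from 63291 to 887567. Python 3.11.15, numpy 2.4.6, scipy 1.17.1 and pandas 2.3.3 were used.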

Additional observations from a re-analysis of the deposited data

Results flagged for a closer look

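Among 8 sets of 6 tumors (4 groups, shares of clonotypes and of counts) 4 had a highest tumor far from the rest by Dixon's test. Chance flags about 1 in 20 groups of independent values, a rate that does not hold here because the 6 tumors are pairs from 3 mice. Tumor 1 of mouse 16, at 2 mg/kg, had a doublet share of 6.37% of clonotypes, with the next tumor of its group at 2.63%. It was the library with the most counts, and 14 of its 118 members had no larger neighbor. The same tumor held 1.36% of counts in members, the next 0.378%, and the mouse 16 clonotype carried 2330 of its 5364 member counts. Tumor 2 of mouse 11, at 0.5 mg/kg, held 9.27% of counts in members, and the next was tumor 1 of the same mouse with 3.04%. Tumor 1 of mouse 19, untreated and time-separated, held 1.33%, with 502 of 976 member counts in 1 clonotype, and the next tumor held 0.365%.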

How the results depend on the processing

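Clone size and sharing between mice kept direction and an unadjusted p under 0.05 under all alternatives run with all mice, and with each mouse left out of the full set, at -0.28 to -0.66 log2 where the unit stayed the same and at -1.59 to -7.65 points. Group comparisons of shares missed the threshold throughout, and some changed sign. All time-separated minus time-matched clonotype share was 0.212 points with a minimum of 5 counts and 0.179 after thinning to 63291 counts, and -0.494 to 0.652 with each mouse left out. Untreated time-separated minus time-matched was -1.07 to 0.0799 points of clonotypes and -0.00811 to 0.263 points of counts with each mouse left out, turning without mouse 14 and mouse 19. For 2 mg/kg it was -0.102 points of clonotypes without 3-base neighbors, and -0.220 to 0.172 points of counts with each mouse left out. The tumor difference of all time-separated against time-matched mice passed with 0.197 points without each mouse's largest member. Persistence was -5.49 points with a minimum of 1 count and -31.7 points by counts, both past the threshold, and 1.82 with a minimum of 5, 0.0340 thinned, 0.252 without cysteine, 1.78 without length weighting, 0.702 with size weighting, and -2.75 to 0.631 with each mouse left out. Size-weighted persistence was -2.71 with a minimum of 1, -0.549 by nucleotide clonotypes, -2.16, -1.81 and -2.73 without 1-base, 2-base and 3-base neighbors, -0.655 without the largest members, and -1.26 to 2.09 with each mouse left out. The group difference in persistence was -7.96, -7.88 and -5.49 without 1-base, 2-base and 3-base neighbors and -1.33 to 5.63 with each mouse left out. That in clone size was -0.0026 log2 thinned, -0.065 without 1-base neighbors, and -0.056 to 0.18 with each mouse left out. The number of genes, lengths and residues called was 25, and 17 to 34 otherwise. The causes were not tested. The labels share no mouse numbers between groups, so no paired analysis between groups was possible because mice are not matched. Low member numbers, down to 9 per tumor, limit all shares.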
